A study of Arabidopsis thaliana with 15 samples.

Results

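WRKY transcription factors are plant DNA-binding proteins that recognise W-box elements in the promoters of defence and stress genes. Their WRKY domain joins a short conserved amino acid stretch to a zinc finger. Group I proteins carry a pair of WRKY domains, group II proteins a single domain with the same type of zinc finger, and group III proteins a single domain with another zinc finger type. In leaves they act in pathogen signalling, salicylic acid and jasmonate responses and senescence, some as activators and others as repressors. Here 46 WRKY genes were read in leaf RNA-seq, of 72 genes that the RefSeq table names as WRKY and of 73194 features in the deposited table. The 46 were taken as a fixed list of loci: 7 of group I, 29 of group II and 10 of group III. The genes were chosen by family membership, with their measured fold changes and calls in the same genotype comparison in view, so the fold changes and calls of these genes describe these libraries and carry no independent support.

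The samples were leaves of 3-week-old untreated Arabidopsis thaliana plants. prp4k3 is described in the series as an amiR-PRP4K3 line, that is, plants carrying an artificial microRNA against PRP4K kinase genes, and Col-0 is the wild-type accession. The labels give no promoter for the artificial microRNA and do not say how many transformants the line stands for. Each genotype had 3 RNA-seq libraries, which nothing in the labels ties to separate plants, so the spread between them may be technical. Library totals ran from 16041754 to 16955629 counts in prp4k3 and from 18305640 to 19344157 counts in Col-0. The se-2 RNA-seq and the small RNA libraries listed in the labels were not analysed here.

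Levels are CPM, the count relative to library size, scaled by TMM, a factor that assumes most features do not change. Fold changes are prp4k3 over Col-0 on the log2 scale. After a fold change, ± gives a standard error derived from its test statistic. After a level or a share, ± gives the SD of the 3 libraries of a genotype. A feature was called at an adjusted p under 0.05 in edgeR's quasi-likelihood test over all 18609 features that passed its filter on low counts. The scale matters here. With plain total-count scaling the median log2 fold change of all tested features was 0.86 in place of 0.02, a shift of 0.84, so each statement below is relative to the TMM scale. Among the genes that the line was made against, AT3G25840, listed as PRP4KA, had 147, 129 and 139 counts in prp4k3 and 150, 143 and 126 counts in Col-0. It fell by 0.68 ± 0.13 on the TMM scale (adjusted p = 0.00116) and lay at 0.16 under total-count scaling. Listed as PRP4KB, AT1G13350 lay at -0.41 ± 0.18 (adjusted p = 0.0646) and, turned in sign, at 0.43 under total-count scaling. No read fell on AT3G53640 (PRP4KC), with 0 counts in all 6 libraries, where 3 counts would make 0.155 to 0.187 CPM. The leaf markers RBCS1A, CAB3, LHCB2.1 and CA1 were abundant in both genotypes. All of these were called lower in prp4k3 on both scales, at -1.59 to -2.02 on the TMM scale. MYB60 was called lower at -1.17 ± 0.14 but not under total-count scaling (-0.33). SUC2 lay at 0.28 ± 0.14, not called, and at 1.13, called higher, under total-count scaling. The 6 leaf markers summed to between 8525 and 9684 CPM in prp4k3 and between 27130 and 30690 CPM in Col-0. RBCS1A alone averaged 6566 CPM in prp4k3 and 19820 CPM in Col-0. Of 8 root markers, PLT1, RHD6 and EXPA7 had 0 counts in every library and PLT2, WOX5 and COBL9 at most 3 in any, while SHR averaged 10 CPM in prp4k3 and 15.3 CPM in Col-0 and SCR averaged 14.3 CPM in prp4k3 and 20.9 CPM in Col-0. Fewer cells of a type and less RNA per cell cannot be told apart in such bulk samples.

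WRKY mRNA as a whole was more abundant in prp4k3. The 46 genes together held 27522, 23752 and 23671 counts in prp4k3 libraries, against 5406, 5063 and 6554 counts in Col-0 libraries. Scaled, their summed level was 1130 ± 62.8 CPM in prp4k3 and 409 ± 71.5 CPM in Col-0 (SD, n = 3 each). Of the 46, 43 passed the filter on low counts. Called higher were 29 and called lower 4, while 33.9% of all tested features were called higher, 31.9% lower and 65.8% in either direction. The median log2 fold change of the 43 was 1.91, against 0.02 over all tested features. Under total-count scaling 39 were called higher and 0 lower, beside 67.1% of all tested features higher and 9.81% lower. All 3 prp4k3 libraries lay above all 3 Col-0 libraries in 32 of the genes, a pattern seen in 36.5% of tested features. They lay below in 4, a pattern seen in 34.0% of tested features. Because the list was chosen with these results known, nothing is read from its distance to those shares. In addition, 13 of the 43 passed the filter only through their prp4k3 counts, which favoured a difference. Among the 30 whose Col-0 counts alone would have passed, 16 were called higher and 4 lower, with a median of 0.99.

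**Figure D1:**
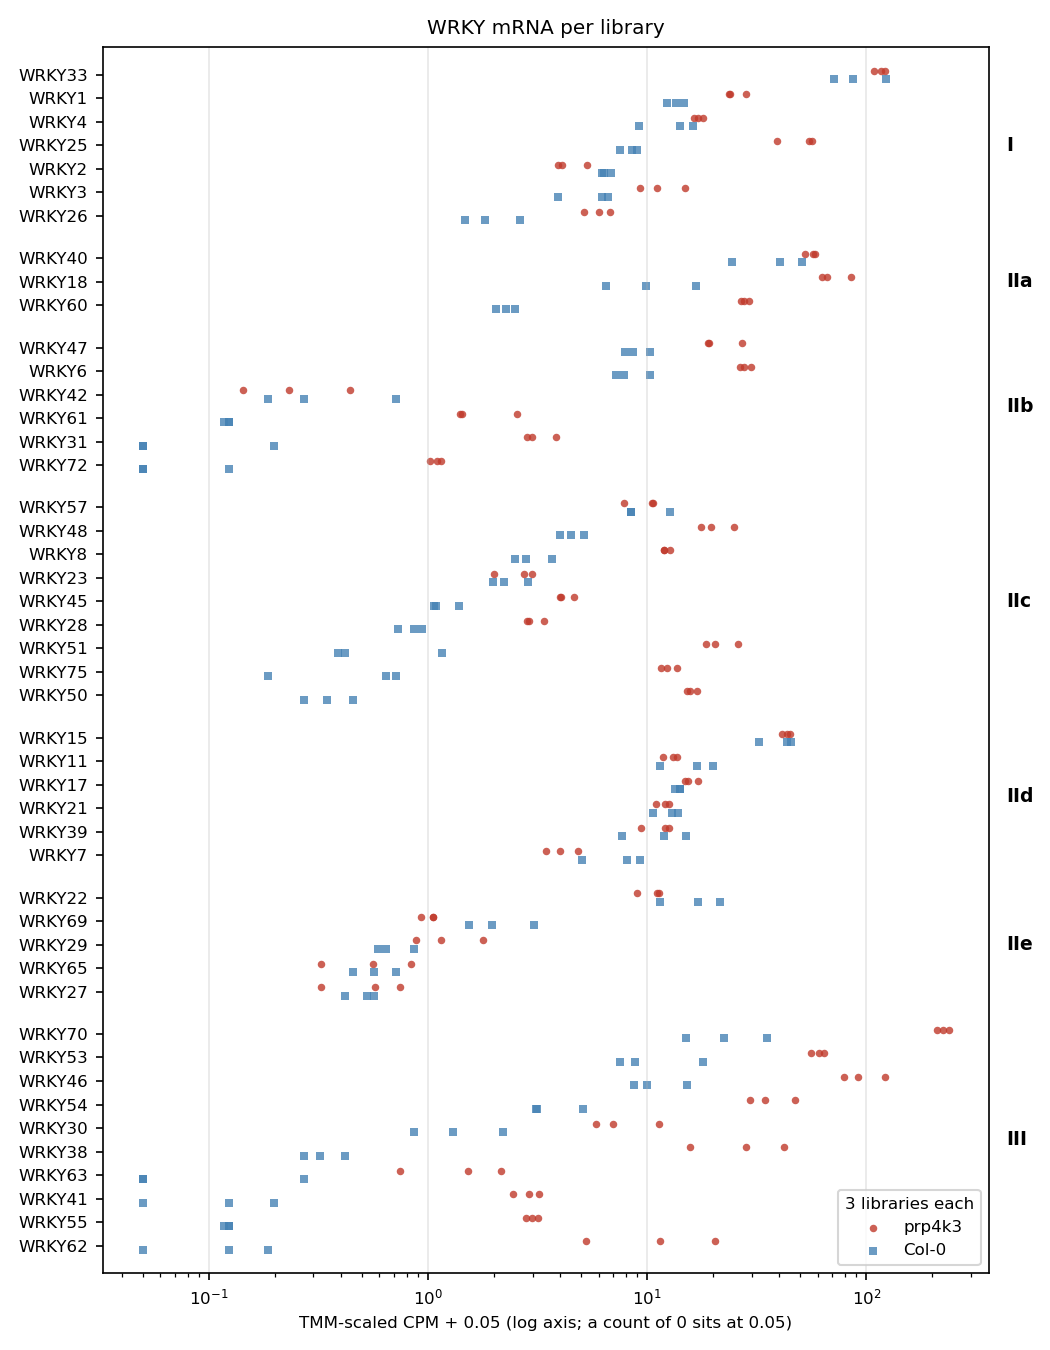
TMM-scaled CPM (plus 0.05, log axis) of the 46 WRKY genes in each of 3 prp4k3 libraries (circles) and 3 Col-0 libraries (squares), sorted within structural subgroup by Col-0 level. Genotypes are apart in all 10 listed genes of group III and overlap in 4 of 6 listed genes of subgroup IId.

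Structural groups differed in how many of their listed genes rose. Only genes of the list were assigned to groups, so whole structural groups are not covered. In group III all 10 listed genes were called higher, with a median log2 fold change of 3.75. In group II 15 of 29 were called higher and 3 lower, with 8 not called and 3 not tested, and the median of the tested genes was 1.51. In group I 4 of 7 were called higher and 1 lower, with a median of 0.90. The medians of group III and group I thus lay 2.85 apart, and those of group III and group II lay 2.24 apart. These medians are over unlike sets, since 5 genes of group III and 8 of group II passed the filter only through prp4k3, against 0 of group I. Over the genes whose Col-0 counts alone would have passed, the median was 3.11 for 5 genes of group III, 0.16 for 18 of group II and 0.90 for 7 of group I. Group II thus lay above group I over all tested genes and below it over this subset. A change of scale moves all genes nearly alike, so it leaves these differences nearly as they are, while the calls do change. Under total-count scaling 10 genes of group III, 23 of group II and 6 of group I were called higher, 0 lower. Of all tested features 67.1% were called higher and 9.81% lower on that scale, against 33.9% and 31.9% on the TMM scale. Group II itself was uneven. In subgroups IIa, IIb and IIc, 14 of 18 genes were called higher and 0 lower, with a median of 2.20 over 17 tested. In subgroups IId and IIe 1 of 11 was called higher and 3 lower, with a median of -0.07 over 9 tested, which under total-count scaling became 0.77. These sets are unlike too, since 7 genes of IIa to IIc passed the filter only through prp4k3, against 1 of IId and IIe. These groups hold few genes and were compared with no test.

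**Figure D2:**
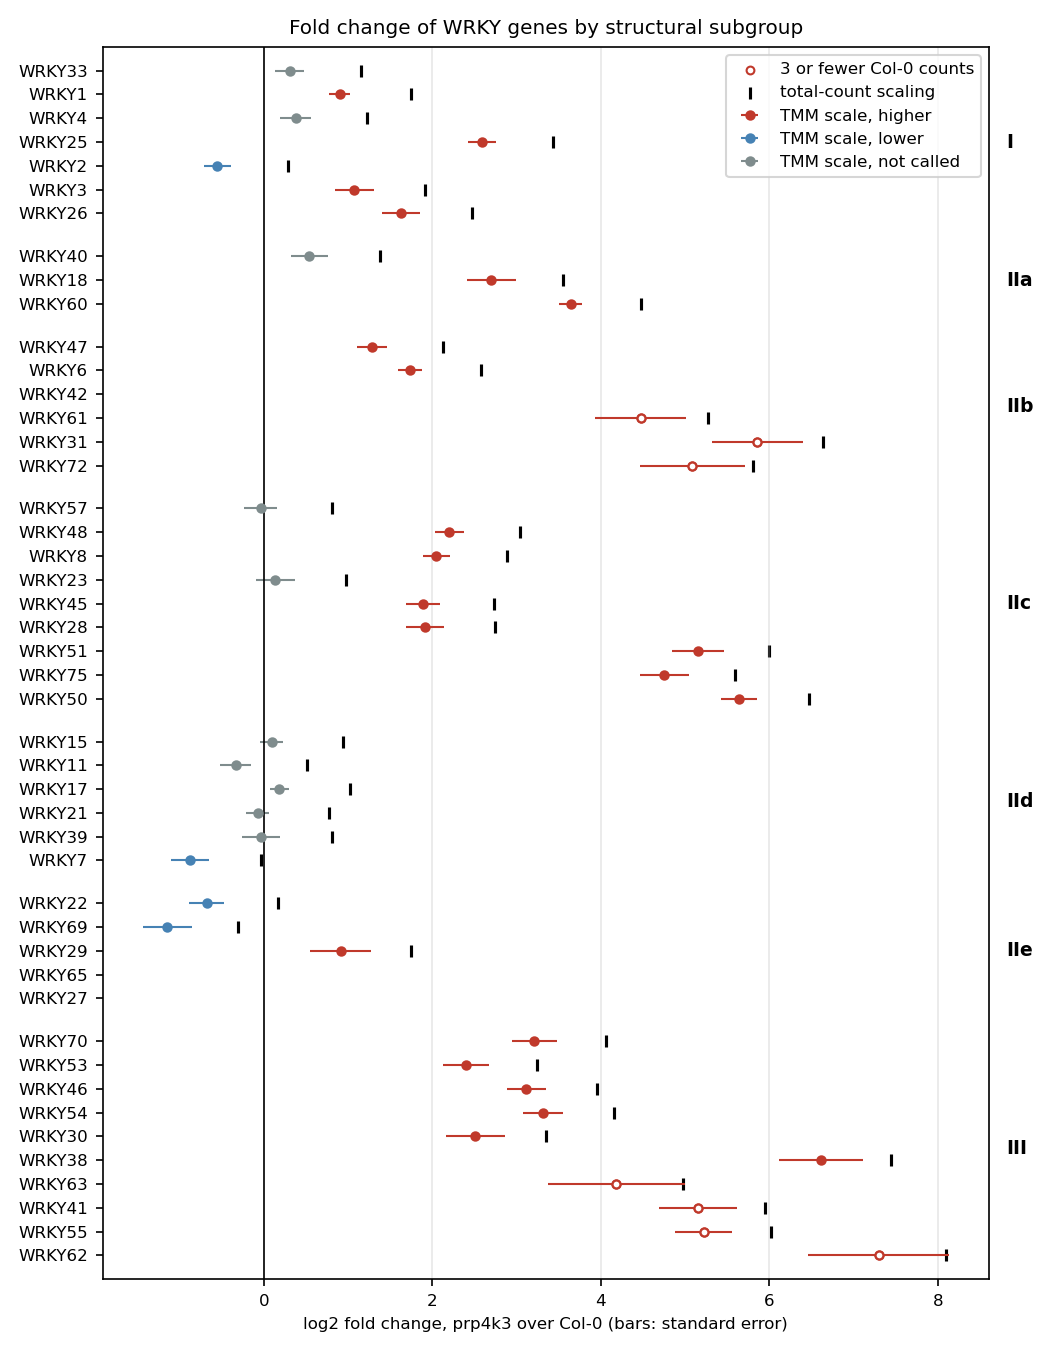
Log2 fold change of each tested WRKY gene, prp4k3 over Col-0, with standard error on the TMM scale (circles, coloured by call) and under total-count scaling (black ticks). Subgroup IId stays within -0.87 and 0.18 on the TMM scale while group III spans 2.40 to 7.30; white-centred circles rest on 3 or fewer Col-0 counts.

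Group III held the gene with the highest level. WRKY70 (AT3G56400), which stands between salicylic acid and jasmonate signalling, had 237, 224 and 211 CPM in prp4k3, against 22.3, 14.9 and 35.3 CPM in Col-0. Its prp4k3 libraries lay close together and far above Col-0, a log2 fold change of 3.21 ± 0.26. WRKY70 alone took 19.8%, 20.3% and 19.5% of all member counts in prp4k3, against 5.59%, 4.35% and 7.28% in Col-0. WRKY54 (AT2G40750), its close relative in salicylic acid responses and senescence, had 47.3, 29.3 and 34.5 CPM in prp4k3 and 3.10, 3.05 and 5.04 CPM in Col-0 (3.31 ± 0.24). These related genes thus moved by nearly the same factor.

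WRKY46 (AT2G46400) and WRKY53 (AT4G23810), related factors of defence and, for WRKY53, of the onset of leaf senescence, were the next most abundant of the group. WRKY46 had 92.0, 121 and 79.0 CPM in prp4k3, against 9.96, 8.69 and 15.1 CPM in Col-0 (3.11 ± 0.23). WRKY53 had 60.5, 63.8 and 55.8 CPM in prp4k3, against 8.71, 7.47 and 18 CPM in Col-0. Its log2 fold change of 2.40 ± 0.28 was the lowest of group III. WRKY30 (AT5G24110), induced by reactive oxygen and pathogens, had 6.94, 11.2 and 5.77 CPM in prp4k3 and 1.25, 0.814 and 2.15 CPM in Col-0 (2.51 ± 0.35).

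The remaining listed group III genes were nearly silent in Col-0. WRKY38 (AT5G22570) and WRKY62 (AT5G01900), induced through NPR1 and known as repressors of basal defence, differed most. WRKY38 had 966, 337 and 618 counts in prp4k3 and 3, 4 and 5 counts in Col-0, a ratio of scaled counts of 101 with an exact 95% counting interval of 57.7 to 196. WRKY62 had 467, 112 and 249 counts in prp4k3 and 0, 2 and 1 counts in Col-0, a ratio of 174 (59.4 to 846). Both were high in every prp4k3 library but uneven there, replicate 1 being the highest and replicate 2 the lowest. Without prp4k3 replicate 1 the fitted log2 fold change of WRKY62 was 6.71, against 7.30 with all libraries.

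WRKY41 (AT4G11070), a relative of WRKY53 with a part in pathogen responses, had 185 counts in prp4k3 and 3 in Col-0, a ratio of 38.9 (13.1 to 190). For WRKY55 (AT2G40740), which lies next to WRKY54 in the genome, the counts were 194 and 3 and the ratio 40.8 (13.8 to 200). WRKY63 (AT1G66600), also named ABO3 and known from abscisic acid responses, had 48, 15 and 32 counts in prp4k3 and 0, 0 and 3 counts in Col-0, a ratio of 19.97 (6.63 to 98.6). With so few Col-0 counts the intervals are wide, and those of the 3 genes overlap. They cover counting error only.

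Group I held the gene with the highest Col-0 level. WRKY33 (AT2G38470), which drives camalexin synthesis and is activated by the MAP kinases MPK3 and MPK6, had 122, 108 and 117 CPM in prp4k3, against 86.5, 71.5 and 122 CPM in Col-0. The genotypes overlapped, and at 0.31 ± 0.18 it was not called. Without Col-0 replicate 3, its highest Col-0 library, it was called higher at 0.54 (adjusted p = 0.00589). Its relatives WRKY25 (AT2G30250) and WRKY26 (AT5G07100), which act with it in heat tolerance, both rose. WRKY25 had 54.6, 39.1 and 56.4 CPM in prp4k3 and 8.49, 7.47 and 8.96 CPM in Col-0, a log2 fold change of 2.59 ± 0.17 and the largest of the group. WRKY26 had 5.11, 6.74 and 6.0 CPM in prp4k3 and 1.77, 1.43 and 2.59 CPM in Col-0 (1.63 ± 0.23).

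The other group I genes changed little or in different directions. WRKY3 (AT2G03340) and WRKY4 (AT1G13960), related genes with a part in resistance to necrotrophic fungi, gave 1.08 ± 0.23, called higher, and 0.38 ± 0.18, not called. WRKY4 had 17.1, 16.3 and 17.9 CPM in prp4k3 and 16.2, 14.1 and 9.11 CPM in Col-0, where replicate 3 stood low. It was called higher without Col-0 replicate 1 (0.55, adjusted p = 0.0289). WRKY1 (AT2G04880), also named ZAP1, rose by 0.90 ± 0.12, with 25.2 ± 2.60 CPM in prp4k3 and 13.5 ± 1.21 CPM in Col-0. WRKY2 (AT5G56270), known from pollen and from the asymmetric division of the zygote, was the gene of this group called lower. It had 4.06, 3.86 and 5.27 CPM in prp4k3, against 6.20, 6.79 and 6.30 CPM in Col-0, and fell by 0.55 ± 0.16. Under total-count scaling WRKY2 lay at 0.29 and was not called.

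Subgroup IIa consists of WRKY18 (AT4G31800), WRKY40 (AT1G80840) and WRKY60 (AT2G25000), which bind each other and limit defence against biotrophic pathogens. WRKY60 had 29.0, 27.7 and 26.8 CPM in prp4k3, against 1.99, 2.44 and 2.22 CPM in Col-0, a rise of 3.64 ± 0.13 with narrow spread in both genotypes. WRKY18 had 85.5, 62.7 and 65.9 CPM in prp4k3 and 9.81, 6.45 and 16.7 CPM in Col-0 (2.70 ± 0.29). WRKY40, the most abundant of the 3 in Col-0, had 52.3, 57.1 and 58.3 CPM in prp4k3, against 40.4, 24.4 and 50.8 CPM in Col-0. Every prp4k3 library lay above every Col-0 library, yet at 0.54 ± 0.22 the gene stayed just short of the threshold (adjusted p = 0.0528). The authors' deposited table has it at an adjusted p of 0.0219. Without Col-0 replicate 3, its highest Col-0 library, WRKY40 was called higher at 0.78 (adjusted p = 0.00788). On average the 3 partners lay between 27.8 and 71.4 CPM in prp4k3 and between 2.22 and 38.5 CPM in Col-0.

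In subgroup IIb all 5 tested genes were called higher, and 3 of them rest on at most 3 Col-0 counts. WRKY31 (AT4G22070) had 64, 63 and 83 counts in prp4k3 and 0, 0 and 2 counts in Col-0, a ratio of 66.2 (18.1 to 550). WRKY72 (AT5G15130), known from basal defence against nematodes, had 24, 21 and 24 counts in prp4k3 and 0, 0 and 1 counts in Col-0, a ratio of 43.5 (7.56 to 1743). For WRKY61 (AT1G18860) the totals were 116 counts in prp4k3 and 3 in Col-0, a ratio of 24.4 (8.14 to 120). The Col-0 counts of WRKY31, WRKY72 and WRKY63 all came from replicate 3, so without it their Col-0 total was 0. WRKY6 (AT1G62300), a factor of senescence and of phosphate transport, stood at 27.9 ± 1.65 CPM in prp4k3 and 8.39 ± 1.61 CPM in Col-0 (1.73 ± 0.14), and WRKY47 (AT4G01720) rose by 1.29 ± 0.17. WRKY42 (AT4G04450), a relative of WRKY6, was not tested: it had 9, 2 and 4 counts in prp4k3 and 3, 2 and 9 counts in Col-0.

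Subgroup IIc contained both strong and absent rises. WRKY50 (AT5G26170) and WRKY51 (AT5G64810), which repress jasmonate responses when salicylic acid is high, were near silent in Col-0. WRKY50 had 16.8, 15.1 and 15.6 CPM in prp4k3 and 0.295, 0.407 and 0.222 CPM in Col-0 (5.64 ± 0.21). WRKY51 had 25.9, 18.5 and 20.4 CPM in prp4k3 and 0.369, 0.339 and 1.11 CPM in Col-0 (5.15 ± 0.31), or 5.90 without Col-0 replicate 3. Both were high in every prp4k3 library.

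WRKY75 (AT5G13080), a gene of phosphate starvation and senescence, rose by 4.76 ± 0.29, with 12.5 ± 1.05 CPM in prp4k3 and 0.464 ± 0.287 CPM in Col-0. Its relative WRKY45 (AT3G01970) rose by 1.89 ± 0.20. WRKY48 (AT5G49520), a stress-induced repressor of basal resistance, rose by 2.20 ± 0.17, WRKY8 (AT5G46350) by 2.05 ± 0.16, and WRKY28 (AT4G18170), an activator of the salicylic acid synthesis gene ICS1, by 1.91 ± 0.22. The remaining genes of this subgroup were not called. WRKY57 (AT1G69310), known from drought tolerance and jasmonate-induced senescence, had 10.6, 10.5 and 7.79 CPM in prp4k3 and 8.41, 12.7 and 8.37 CPM in Col-0 (-0.03 ± 0.20, or 0.81 under total-count scaling). WRKY23 (AT2G47260), a gene of auxin-dependent development, had 2.92, 1.95 and 2.70 CPM in prp4k3 and 2.80, 2.17 and 1.93 CPM in Col-0 (0.14 ± 0.23). In both the genotypes overlapped.

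Subgroup IId, whose proteins bind calmodulin, held 0 genes called higher of 6. WRKY15 (AT2G23320), known from responses to oxidative and osmotic stress, was well expressed, with 43.4, 44.8 and 41.2 CPM in prp4k3 and 45.2, 32.3 and 43.6 CPM in Col-0 (0.10 ± 0.14). WRKY11 (AT4G31550) and WRKY17 (AT2G24570), related repressors of basal resistance to bacteria, lay at -0.33 ± 0.19 and 0.18 ± 0.11. WRKY11 had 13.6, 11.7 and 13 CPM in prp4k3 and 11.4, 16.9 and 20.0 CPM in Col-0. Without Col-0 replicate 1, its lowest Col-0 library, WRKY11 was called lower at -0.54 (adjusted p = 0.00848).

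WRKY17 had 17.1, 15.3 and 14.8 CPM in prp4k3, just above its 13.4, 14.1 and 14.1 CPM in Col-0, and was not called. WRKY21 (AT2G30590) had 12.5, 11 and 12 CPM in prp4k3 and 13.8, 12.9 and 10.6 CPM in Col-0 (-0.07 ± 0.13). WRKY39 (AT3G04670), a gene of heat responses, had 12.0, 9.29 and 12.5 CPM in prp4k3 and 15.1, 11.9 and 7.63 CPM in Col-0 (-0.03 ± 0.22). Both overlapped between the genotypes. WRKY7 (AT4G24240) was the gene of this subgroup called lower, with 3.97, 3.39 and 4.76 CPM in prp4k3 and 5.02, 8.01 and 9.18 CPM in Col-0, and it fell by 0.87 ± 0.23. Under total-count scaling WRKY7 lay at -0.03 and was not called, and the other 5 genes of the subgroup were called higher, between 0.51 and 1.03. The median of the subgroup was 0.79 there, against 0.86 over all tested features, of which 67.1% were called higher. The summed level of the subgroup was 98.8 ± 3.57 CPM in prp4k3 and 102 ± 4.85 CPM in Col-0 (SD, n = 3 each).

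Subgroup IIe split between related genes. WRKY22 (AT4G01250) and WRKY29 (AT4G23550) both act downstream of the MAP kinase cascade started by flagellin. WRKY22 had 8.90, 11.3 and 11 CPM in prp4k3, against 17.1, 11.4 and 21.6 CPM in Col-0, and fell by 0.68 ± 0.21. It lay at 0.17 under total-count scaling, and its call was lost without prp4k3 replicate 1 (adjusted p = 0.0681) or Col-0 replicate 3 (adjusted p = 0.0642). WRKY29 rose by 0.91 ± 0.36 at the edge of the threshold (adjusted p = 0.049), with 25, 18 and 38 counts in prp4k3 and 11, 8 and 8 counts in Col-0. Its call was lost when any library other than prp4k3 replicate 2 was left out, and without prp4k3 replicate 3 the log2 fold change was 0.57. WRKY69 (AT3G58710) fell by 1.14 ± 0.29, with 1.0, 0.883 and 1.0 CPM in prp4k3 and 1.92, 2.99 and 1.48 CPM in Col-0, and lay at -0.31, not called, under total-count scaling. WRKY27 (AT5G52830) and WRKY65 (AT1G29280) did not pass the filter. WRKY27 had 33 counts in prp4k3 and 19 in Col-0, a ratio of scaled counts of 1.10 (0.605 to 2.04). WRKY65 had 35 counts in prp4k3 and 22 in Col-0, a ratio of 1.003 (0.572 to 1.80). In the test without a filter both were not called, at adjusted p values of 0.793 and 0.958.

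The genes not called higher on the TMM scale were therefore WRKY2, WRKY4 and WRKY33 of group I and WRKY40, WRKY57, WRKY23, WRKY7, WRKY11, WRKY15, WRKY17, WRKY21, WRKY39, WRKY22 and WRKY69 of group II, 14 in all, with WRKY42, WRKY27 and WRKY65 too low to test. Group III had none among its listed genes. Not called does not by itself mean level. In WRKY4, WRKY40 and WRKY17 every prp4k3 library lay above every Col-0 library, though 36.5% of all tested features had this pattern. Under total-count scaling 10 of these 14 were called higher, all but WRKY2, WRKY7, WRKY22 and WRKY69. That is near the 67.1% of all tested features called higher on that scale.

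**Figure D3:**
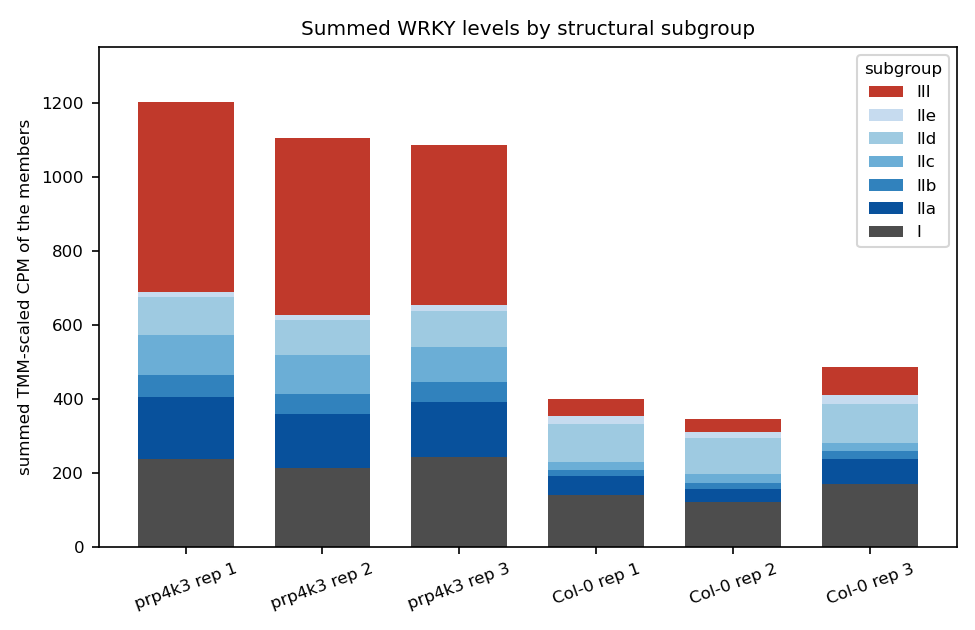
Summed TMM-scaled CPM of the WRKY genes in each library, 3 of prp4k3 and then 3 of Col-0, stacked by structural subgroup. Group III makes up 432 to 515 CPM of each prp4k3 bar and 35.4 to 76.5 CPM of each Col-0 bar, while subgroup IId stays between 95.4 and 105 CPM in all 6.

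The make-up of WRKY mRNA shifted accordingly. Shares of the member counts are free of the scaling factor. Group III held 42.0% ± 1.82 of member counts in prp4k3 and 12.5% ± 2.88 in Col-0 (SD, n = 3 each), while group I held 20.4% ± 1.62 in prp4k3 and 34.8% ± 0.340 in Col-0. Subgroup IId held 8.75% ± 0.282 in prp4k3 and 25.2% ± 3.25 in Col-0. In each case the 3 libraries of a genotype lay apart from those of the other. Subgroup IIa took 13.9%, 13.4% and 13.9% in prp4k3 and 13.1%, 9.68% and 14.4% in Col-0, which overlap.

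Per kilobase of gene span, introns included, the order of the levels also changed. In prp4k3 WRKY70 stood first at 117 CPM per kb, followed by WRKY46 at 63.0 ± 13.9 and WRKY33 at 45.7 ± 2.81 (SD, n = 3). The libraries of these genes did not overlap there. In Col-0 WRKY33 stood first at 36.9 ± 10.4 CPM per kb, followed by WRKY15 at 27.2 ± 4.74 and WRKY40 at 19.9 ± 6.87, neighbours whose libraries overlapped. WRKY70 came next at 12.6 ± 5.40 CPM per kb.

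**Figure D4:**
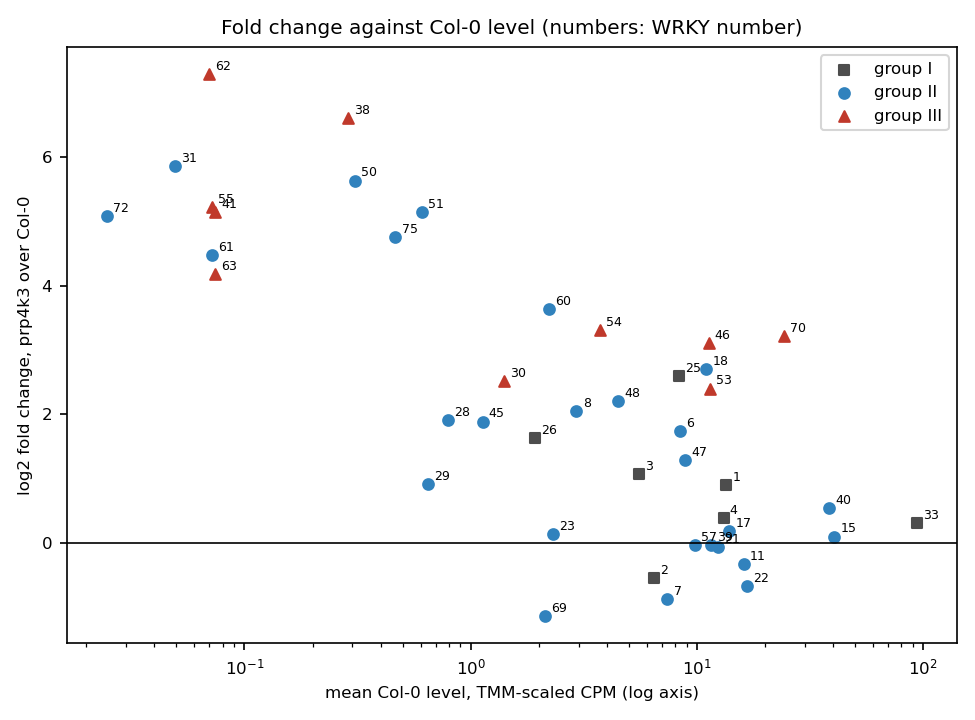
Log2 fold change on the TMM scale against mean Col-0 level (log axis) for the 43 tested WRKY genes, by structural group. Genes under 1 CPM in Col-0 lie between 0.91 and 7.30, while those of 10 CPM or more span -0.68 to 3.21.

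The genes with the lowest Col-0 levels had the largest fold changes. Of 16 genes under 1 CPM in Col-0, 13 were called higher and 3 were not tested, with a median of 5.15. Of 16 between 1 and 10 CPM, 11 were called higher and 3 lower (median 1.68), and of 14 at 10 CPM or more, 5 were called higher and 1 lower (median 0.34). Spearman's rho between Col-0 level and fold change was -0.689 across the 43 tested genes. It is a description only, since the Col-0 counts enter both axes and low genes passed the filter through prp4k3. At like Col-0 levels the fold changes still spread, within group II as well as between groups. WRKY46 and WRKY53 of group III, at 11.3 and 11.4 CPM in Col-0, had log2 fold changes of 3.11 and 2.40. WRKY39 and WRKY21 of subgroup IId, at 11.5 and 12.4 CPM, had -0.03 and -0.07. WRKY18 of subgroup IIa, thus also of group II, had 2.70 at 11 CPM in Col-0, which is above WRKY53.

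**Figure D5:**
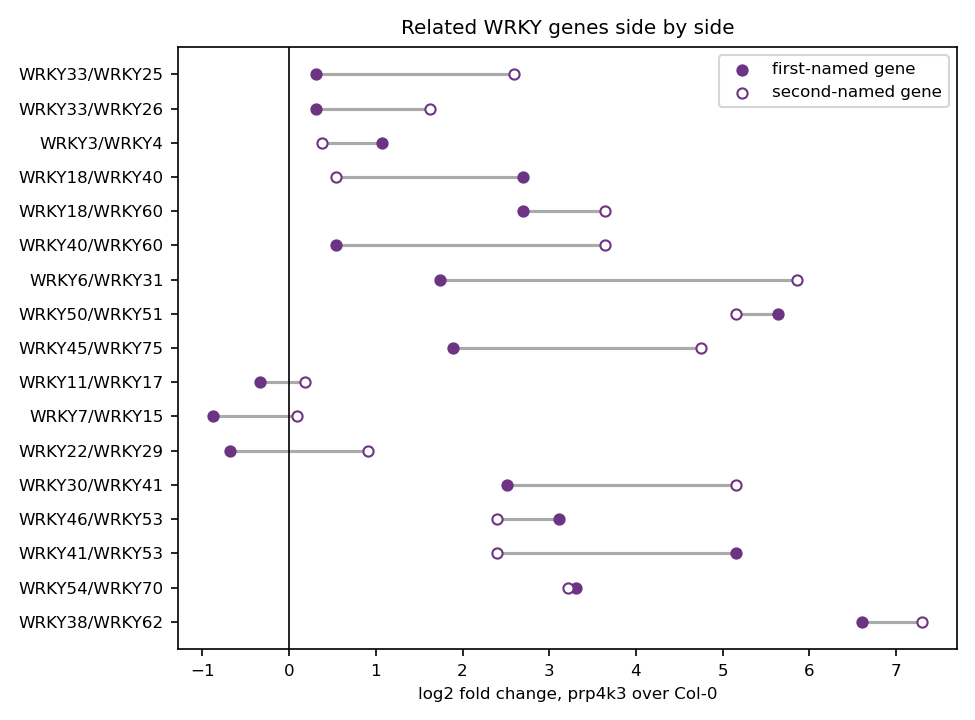
Log2 fold changes (prp4k3 over Col-0, TMM scale) of related WRKY genes, joined by a line; filled circles are the first-named gene and open circles the second. WRKY54 and WRKY70 nearly coincide, and WRKY22 and WRKY29 lie on opposite sides of 0, though at 0.17 and 1.75 under total-count scaling.

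Close relatives did not always move together. The log2 fold changes of WRKY54 and WRKY70 differed by 0.10 and those of WRKY50 and WRKY51 by 0.48. WRKY40 lay 3.10 below WRKY60, WRKY33 lay 2.28 below WRKY25, WRKY45 lay 2.87 below WRKY75, and WRKY22 lay 1.59 below WRKY29. These differences, taken within the same libraries, move little with the scale and were not tested. Reads shared between near-identical stretches could blur them, since how such reads were counted is not given in the sources used here.

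Library patterns ran through the family. In Col-0, replicate 3 was the highest library for 29 of the 46 genes (63.0%), against 38.4% of all tested features, and for 9 of 10 genes of group III. In prp4k3 the order replicate 1, replicate 3, replicate 2 from high to low was held by 14 of the 46 genes (30.4%), against 16.3% of all tested features. Among them were genes called higher, such as WRKY38, WRKY62, WRKY63, WRKY54 and WRKY61. WRKY33, WRKY11, WRKY21 and WRKY23, not called, and WRKY42, not tested, had this order too. Of the 9 shoot apex and flower markers, the flower organ genes AP1, PI, AP3, SEP3 and AG had the same order. AP1 had 42, 11 and 25 counts in prp4k3 replicates 1, 2 and 3, PI 66, 9 and 20, AP3 32, 5 and 13, and SEP3 37, 8 and 19, against at most 2 counts of each in any Col-0 library. AG had 24, 7 and 11 counts in prp4k3 and 4, 8 and 6 in Col-0, which overlap. The apex genes went different ways. STM was called lower, with 98, 53 and 49 counts in prp4k3 and 71, 90 and 83 in Col-0. KNAT1 was called higher, with 171, 107 and 101 counts in prp4k3 and 32, 64 and 33 in Col-0. CLV3 had 0 counts in prp4k3 and 1 in each Col-0 library. The 9 together summed to between 9.34 and 20.7 CPM in prp4k3 and between 8.12 and 11.4 CPM in Col-0, with 2 called higher and 1 lower of 3 tested and SEP3 and WUS at 0 in Col-0. With prp4k3 replicate 1 left out, WRKY38, WRKY62 and WRKY63 were still called higher, at 6.22, 6.71 and 3.78. With all libraries they lay at 6.61, 7.30 and 4.19. The flower organ genes had counts in prp4k3 replicates 2 and 3 too. The part of these markers in the WRKY values was not tested.

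The WRKY genes outside the list behaved unevenly too. Of those 26, 12 passed the filter, and 7 were called higher and 0 lower, with a median of 1.0 (11 higher and 0 lower under total-count scaling). Over all tested features the shares were 33.9% higher and 31.9% lower, or 67.1% higher and 9.81% lower under total-count scaling. WRKY58 rose by 1.78 ± 0.20 (adjusted p = 4.65e-05) and WRKY19 by 1.17 ± 0.14 (adjusted p = 6.07e-05). The other 14 were not tested, and 4 of them had 0 counts in every library.

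Genes that act with WRKY proteins were read from lists of the pathway. Of 12 tested genes of the MAP kinase cascades that feed into WRKY factors, 7 were called higher and 1 lower, with a median of 0.52 (11 higher and 0 lower under total-count scaling), beside 33.9% higher of all tested features, or 67.1% under total-count scaling. MPK11 rose by 3.84 ± 0.25, with 44.5 CPM in prp4k3 and 3.13 CPM in Col-0 (adjusted p = 1.97e-06). MKK2, a kinase upstream of MPK4, rose by 2.0 ± 0.14 (adjusted p = 2.14e-06). MPK3 rose by 0.91 ± 0.17 (adjusted p = 0.000975). MPK6 lay at -0.07 ± 0.10 (adjusted p = 0.561), or at 0.77, called higher, under total-count scaling. MKK4, upstream of MPK3 and MPK6, fell by 0.49 ± 0.17 (adjusted p = 0.0268) but lay at 0.35 under total-count scaling.

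Of 10 tested VQ proteins, small partners that bind WRKY domains, 3 were called higher and 1 lower, with a median of -0.08 (8 higher and 0 lower under total-count scaling). That is near the 33.9% of all tested features called higher, and the 67.1% under total-count scaling. SIB1, a partner of WRKY33, rose by 2.73 ± 0.17, with 54.6 CPM in prp4k3 and 8.23 CPM in Col-0 (adjusted p = 1.3e-06). AT3G22160, named JAV1 and a partner of WRKY51, rose by 2.55 ± 0.19 (adjusted p = 3.6e-06). MKS1, which holds WRKY33 in a complex with MPK4, lay at -0.38 ± 0.18 (adjusted p = 0.0821), or at 0.46, called higher, under total-count scaling. CAMBP25 fell by 1.03 ± 0.13 (adjusted p = 7.59e-05) and was not called under total-count scaling (-0.19).

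Of 15 tested genes known as targets of WRKY factors, 12 were called higher and 0 lower, with a median of 3.10 (15 higher and 0 lower under total-count scaling). Over all tested features 33.9% were called higher, or 67.1% under total-count scaling. The list was drawn up with results of these libraries known. The defence marker PR1 rose by 5.78 ± 0.23, with 948 CPM in prp4k3 and 17.3 CPM in Col-0 (adjusted p = 3.44e-07), and EDS1, a hub of immune receptor signalling, by 3.63 ± 0.15 (adjusted p = 3.62e-07). PAD3 and CYP71A13, camalexin genes activated by WRKY33, rose by 4.51 ± 0.39 (adjusted p = 8.23e-06) and 4.98 ± 0.34 (adjusted p = 2.39e-06), while WRKY33 mRNA itself was not called on the TMM scale. WRKY33 was called higher at 1.15 under total-count scaling, where PAD3 lay at 5.35 and CYP71A13 at 5.82. Among genes of ethylene synthesis, ACS2 rose by 4.17 ± 0.35 (adjusted p = 7.51e-06) and ACS6 lay at -0.18 ± 0.17 (adjusted p = 0.37). PHO1, a phosphate exporter gene repressed by WRKY6, lay at -0.19 ± 0.20 (adjusted p = 0.425). Under total-count scaling ACS6 (0.67) and PHO1 (0.65) turned in sign and were called higher.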

How the data were processed

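Read counts per feature were deposited by the authors for 3 prp4k3 and 3 Col-0 leaf RNA-seq libraries. TopHat2, SAMtools, HTSeq and edgeR are named, per the submitters' processing notes. No source used here gives their versions, their roles, the genome build or the strand setting. The deposited table also holds the authors' scaled score per library and their fold (a linear ratio), log2 fold change, p-value and adjusted p. Of these, the adjusted p of WRKY40 and the number of calls in the closing section are quoted. Counts were tested with edgeR 4.0.16 (limma 3.58.1, R 4.3.3): filterByExpr with a minimum count of 10, TMM scaling, then quasi-likelihood tests of genotype over all features with Benjamini-Hochberg adjustment. The code was run on simulated data in which few features changed, as many up as down. That run does not bear on the choice of scale in these libraries.

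Genes with 3 or fewer Col-0 counts, and WRKY38, are given as a ratio of scaled counts with an exact 95% interval; a floor of 3 counts is 0.155 to 0.187 CPM before TMM. In a chi-square comparison all replicate pairs differed by more than sampling noise. Genes, lists, structural groups and alternatives were chosen with earlier results of these data known; groups come from general knowledge of the family, and symbols and gene spans from RefSeq (TAIR10.1), which matched all 46 genes. Of 29 listed VQ genes, 13 were kept because the table names them. Named in full were all genes not called higher, the largest rises of each subgroup and the most abundant genes. The alternatives were RLE factors, total-count scaling, DESeq2 1.42.0, other filters, removal of organelle and rRNA features, a replicate block and leaving out each library.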

Additional observations from a re-analysis of the deposited data

How the results depend on the processing

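Of 29 rises, 28 kept their call and direction in all 13 alternatives that gave them a value; WRKY29 lost its call with RLE factors (adjusted p = 0.0506), DESeq2 (0.124) and the replicate block (0.0549). Total-count scaling moved most: 0 genes lower in place of 4, 23 of group II higher in place of 15, and a median of 2.75 in place of 1.91. There the sign turned for WRKY2 (0.29), WRKY57 (0.81), WRKY11 (0.51), WRKY21 (0.77), WRKY39 (0.81) and WRKY22 (0.17), as follows from the shift of the scale. WRKY63 was not tested with a minimum of 1 CPM in 3 libraries.

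Leaving out single libraries gave 28 to 30 genes higher, 3 to 5 lower and medians of 1.80 to 1.99. The sign of genes near 0 turned in some of these, with ranges of -0.15 to 0.19 for WRKY57, -0.27 to 0.19 for WRKY39, -0.18 to 0.0003 for WRKY21 and -0.051 to 0.18 for WRKY15. Fitted values resting on few Col-0 counts moved most, without Col-0 replicate 3 to 8.91 for WRKY31, 7.31 for WRKY72, 7.76 for WRKY63 and 6.05 for WRKY41, and without Col-0 replicate 2 to 8.14 for WRKY62. The cause of the calls lost or gained on leaving out a library was not tested.

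The counts gave no sign of pairing by repeat number. Same-numbered libraries correlated at -0.049, 0.046 and -0.047 in their deviations from the genotype means, and not every library correlated best with its own number. With 3 libraries per genotype this cannot show that the libraries were unpaired, and the labels do not say. With the replicate block 11875 features were called in place of 12253, and WRKY40 was called higher (0.59, adjusted p = 0.0277), as it also was with DESeq2 (0.54, adjusted p = 0.0347), with no filter (0.57, adjusted p = 0.0089) and without organelle and rRNA features (0.56, adjusted p = 0.0463). WRKY4 was called with no filter (0.41, adjusted p = 0.0441). The authors' deposited table calls 30 of the 46 genes higher and 4 lower, by its own adjusted p and a threshold of 0.05. Of the 46 genes 10 overlap another gene in RefSeq, WRKY1, WRKY2, WRKY4, WRKY33, WRKY40, WRKY61, WRKY29, WRKY69, WRKY41 and WRKY53, so their counts are uncertain where strand was not used. Depth limits the genes under 1 CPM in Col-0, whose ratios have wide counting intervals.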
